A study of Mus musculus with 24 samples.

Results

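Osteoblast and osteocyte genes were examined in bulk RNA from mouse prostate tumors, as 9 genes chosen by name (Runx2, Sp7, Bglap, Bglap2, Alpl, Ibsp, Dmp1, Phex and Sost) out of 55401 gene identifiers in the count table. Each was found by the Ensembl identifier that GENCODE M21 gives for its symbol. The rule holds no threshold on a measured value, but the set was drawn up with earlier results of these data known. The tumors were grown in male C57/BL6 mice, aged 8 to 10 weeks, from the TC2Ras line, a TRAMP-C2 prostate adenocarcinoma line transduced with activated H-Ras and mouse androgen receptor. Of 24 tumors, 4 were subcutaneous, started from 300000 TC2Ras cells per flank and harvested on day 7, with 2 in mice given empty vector (control) and 2 in mice given IL-27 vector. The other 20 were intratibial, started from 100000 luciferase-expressing TC2Ras-Luc cells per tibia. Of these, 12 were harvested on day 14 (3 a group) and 8 at the ethical endpoint, on days that are not given (end of study, EOS, 2 a group). Their groups were control (empty vector and the vehicle PvP), IL-27 (IL-27 vector and PvP), cabo (empty vector and cabozantinib) and IL-27+cabo. The plasmids were delivered to skeletal muscle by sonoporation, and cabozantinib, a small molecule that blocks several receptor tyrosine kinases, was given orally at 30 mg/kg daily until day 14, so EOS tumors of these groups were harvested after dosing had ended. All tumors came from a single parental line, and every control mouse carried an empty vector.

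Osteoblasts lay down and mineralize bone matrix, and osteocytes are osteoblasts that became embedded in it. Runx2 and its downstream partner Sp7 (osterix) are the transcription factors that commit mesenchymal cells to the osteoblast fate. Alpl, the tissue-nonspecific alkaline phosphatase, Ibsp (bone sialoprotein) and the osteocalcin genes Bglap and Bglap2 are turned on in order as osteoblasts mature, whereas Dmp1, Phex and Sost are used mostly by osteocytes, for phosphate handling and for restraint of Wnt signaling. Runx2 and Phex are also transcribed by some cells outside bone.

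The osteocalcin genes show what this set asks of the counting, because they are neighbours that are nearly the same. In GENCODE M21 on GRCm38, Bglap (ENSMUSG00000074483) lies at chr3:88383501-88384464 and Bglap2 (ENSMUSG00000074486) at chr3:88377736-88378699, both on the minus strand. Their coding sequences are 288 bases each and differ at 4 bases, which stand in capitals below. The sequences are those of the GENCODE M21 transcripts, 5′ to 3′.
Bglap: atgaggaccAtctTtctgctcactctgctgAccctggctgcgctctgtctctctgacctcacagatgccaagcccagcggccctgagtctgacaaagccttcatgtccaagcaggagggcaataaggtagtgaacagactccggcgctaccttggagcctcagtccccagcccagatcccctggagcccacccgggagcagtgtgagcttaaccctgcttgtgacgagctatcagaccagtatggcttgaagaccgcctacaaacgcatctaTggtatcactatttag
Bglap2: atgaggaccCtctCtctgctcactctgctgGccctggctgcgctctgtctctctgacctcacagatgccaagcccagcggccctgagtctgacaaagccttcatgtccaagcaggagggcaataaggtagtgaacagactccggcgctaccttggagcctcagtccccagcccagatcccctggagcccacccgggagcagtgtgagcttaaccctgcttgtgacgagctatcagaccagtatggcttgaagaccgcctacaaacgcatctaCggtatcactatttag
They were identical at 98.6% of positions, and 74.7% of the stretches of 50 bases in the Bglap transcript also occur in Bglap2, so a read from either can be assigned to the other and their separate counts are uncertain. Runx2 protein binds a short core motif, ACCACA, and Bglap is a textbook target. The 250 bases before the Bglap start (RefSeq, GRCm38.p6, minus strand, chr3:88384467-88384716) are shown because this gene had almost no counts in tumors where Runx2 had 2703 or more, with the motif in capitals.
Bglap upstream: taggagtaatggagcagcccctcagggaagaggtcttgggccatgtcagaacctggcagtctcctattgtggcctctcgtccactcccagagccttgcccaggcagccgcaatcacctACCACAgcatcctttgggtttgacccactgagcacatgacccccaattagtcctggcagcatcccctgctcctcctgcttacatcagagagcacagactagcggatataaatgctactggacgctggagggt
The motif was searched as ACCACA on both strands, and no other motif was searched. It occurred in 3 of the 9 promoter entries that 7 members have there (1 each of Runx2, Bglap and Dmp1) and in 14% of 32817 promoter windows of the same length. Sp7 and Bglap2 were not matched in that table.

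Total counts were 63729005 to 83782258 a library, so 3 counts, taken as the floor of detection, stood for 0.0363 to 0.0574 CPM (counts scaled to library size, with edgeR's TMM factors over all 24 tumors). These floors cover counting error only, while the 95% intervals of fold changes come from the fit and include the spread between tumors. No pair of tumors in a group agreed within sampling noise, and the day 14 IL-27+cabo tumor of mouse 20 stood apart from its group, with the fewest counts. The labels do not say whether the tumors of a group came from separate animals in the subcutaneous model, so p-values there measure the spread between tumors. In bulk RNA, fewer cells of a type and less RNA per cell cannot be told apart.

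Only Runx2, Phex and Alpl were above the floor in all 24 tumors. Runx2 (ENSMUSG00000039153, chr17:44495987-44814797, minus strand) had 2703 to 7375 counts, with a median of 5032.5. Phex, the endopeptidase whose loss causes X-linked hypophosphatemia (ENSMUSG00000057457, chrX:157162075-157415312, minus strand), had 569 to 2778 counts, with a median of 1387. Alpl (ENSMUSG00000028766, chr4:137741733-137796384, minus strand) had 4 to 142 counts, with a median of 75.

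The other 6 members were near or under the floor in most tumors. Sp7 (ENSMUSG00000060284, chr15:102356606-102367182, minus strand) was above the floor in 19 of 24 tumors, with at most 22 counts. Dmp1, an acidic phosphoprotein of the mineralizing matrix (ENSMUSG00000029307, chr5:104202613-104214102, plus strand), was also above it in 19 of 24 tumors, with at most 27 counts. Ibsp (ENSMUSG00000029306, chr5:104299171-104311469, plus strand) was above it in 8 of 24 tumors and at 0 in 16, and its highest counts were 32 in 1 day 14 cabo tumor and 20 in 1 subcutaneous IL-27 tumor. Its value thus exceeded 8 counts in a tumor outside bone as well as in bone.

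Bglap had 7 counts in the EOS IL-27 tumor of mouse 10, 2 in subcutaneous IL-27 tumor 1 and 0 in the other 22 tumors. Bglap2 had 3 counts in that same EOS IL-27 tumor and 0 in the other 23. Over the 20 intratibial tumors, osteocalcin therefore had 7 counts for Bglap and 3 for Bglap2. A summed count of 3 over these 20 libraries stood for 0.00213 CPM, the most that a summed count of 0 would allow. Sost, the secreted Wnt antagonist sclerostin (ENSMUSG00000001494, chr11:101962458-101967015, minus strand), had 0 counts in all 20 intratibial tumors and was seen in 3 of 4 subcutaneous tumors. Of the markers of mature osteoblasts and osteocytes among the members, Bglap, Bglap2, Ibsp, Sost and Dmp1 were thus at or near 0 in tumors labelled intratibial, whereas Phex had 569 to 1967 counts in all 20, and the label names the site of injection and not a bone sample.

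**Figure D1:**
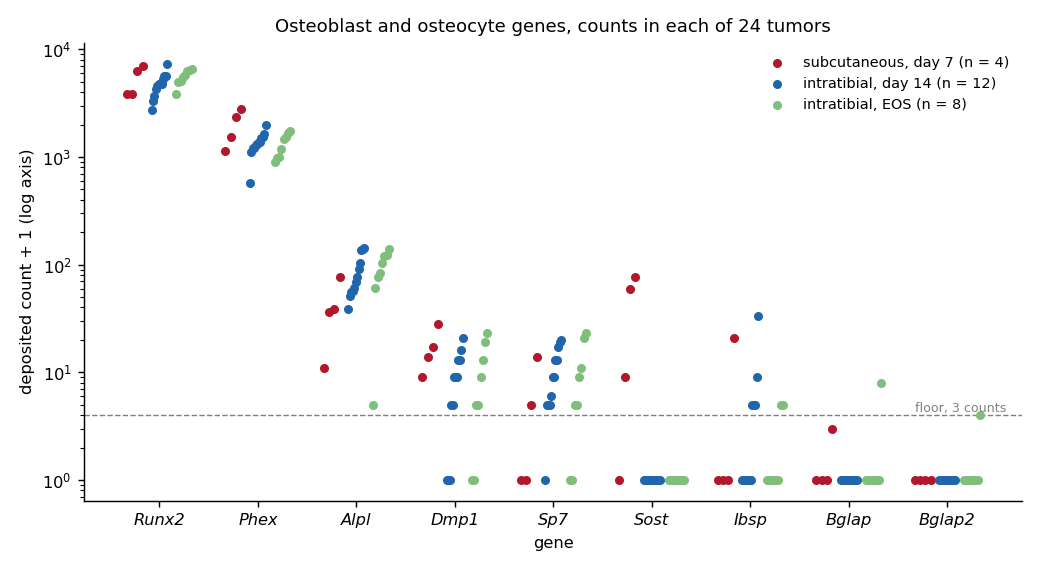
Deposited count plus 1 (log axis) of each of the 9 genes in each of 24 tumors, colored by site and harvest, with a dashed line at the floor of 3 counts. Runx2 and Phex stood at 569 to 7375 counts, Alpl at 4 to 142, and the other genes at 75 or fewer, with Sost at 0 in all 20 intratibial tumors.

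Low counts had a particular grain. Of 48 member values from 1 to 20, 36 (75%) were multiples of 4, against 32.3% of such values over all genes. The counts of low members may thus rest on fewer fragments than their number, and after division by 4, Alpl was still above the floor in 22 of 24 tumors, Dmp1 in 6, Sp7 in 5, Ibsp in 2, Sost in 2 and the osteocalcin genes in 0.

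Per kilobase of exon, the level ran from Runx2 through Phex and Alpl to the rest. In the intratibial tumors, the median CPM per kb was 7.92 for Runx2 (5.05 to 11.7) and 2.98 for Phex (1.73 to 4.88), and these ranges did not overlap. Alpl followed with a median level of 0.285 CPM per kb (0.0131 to 0.66). Dmp1 had a median level of 0.0394 CPM per kb (0 to 0.138) and Sp7 one of 0.0321 (0 to 0.0886), so their order was not distinct beyond the spread. The median was 0 for Ibsp, Bglap, Bglap2 and Sost. The levels of the first 3 genes varied in unequal measure between intratibial tumors, with a coefficient of variation in CPM of 22% for Runx2, 24.3% for Phex and 48.3% for Alpl.

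Other genes of osteoblasts, in a list of 20 matrix and mineralization genes, covered a far wider range. In the intratibial tumors the median level was 1100 CPM per kb for Spp1 (osteopontin), 344 for Sparc (osteonectin), 291 for Col1a1 and 99.9 for Col1a2, the chains of type I collagen. These 4 abundant genes are also made by fibroblasts, macrophages or tumor cells, and they were abundant in the subcutaneous tumors too, at median levels of 322, 554, 142 and 138 CPM per kb. Ank and Enpp1, which set the pyrophosphate that restrains mineralization in many tissues, had median levels of 176 and 27.5 CPM per kb, and Mmp13 one of 4.7. Phospho1, the phosphatase of matrix vesicles, had 80 to 884 counts in every intratibial tumor and a median level of 3.11 CPM per kb. Other genes of the list were low. Ifitm5, a protein of the osteoblast membrane, had a median level of 0.174 CPM per kb, the osteocalcin relative Bglap3 one of 0.0101, and Dlx5, a transcription factor upstream of Sp7, was at 0 in 12 of 20 tumors. Of 5 further osteocyte genes, Mepe was at 0 in 16, Fgf23 in 19 and Dkk1 in 19 of 20 intratibial tumors, whereas Pdpn (podoplanin), which lymphatic endothelium and fibroblasts also express, had a median level of 112 CPM per kb and Irx5 one of 2.02.

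**Figure D2:**
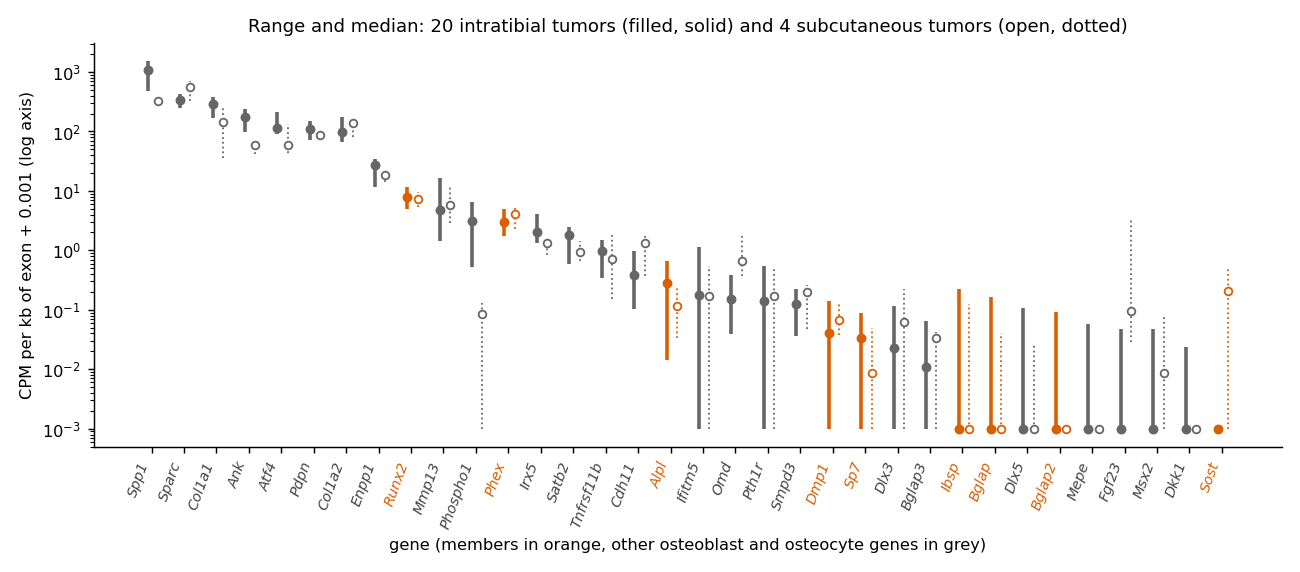
Median and range of CPM per kilobase of exon plus 0.001 (log axis) for the 9 genes (orange) and 25 other osteoblast and osteocyte genes (grey), in 20 intratibial tumors (filled, solid) and 4 subcutaneous tumors (open, dotted). Among the 9 genes Runx2 was highest at 7.92 in intratibial tumors and Sost lowest at 0, while Spp1 reached 1100.

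The first question was whether tumors in bone held more of these transcripts than tumors under the skin, and day 14 control tumors were compared with subcutaneous control tumors. Runx2 was at 44.6, 68.5 and 77.9 CPM in the 3 intratibial tumors, and at 48.1 and 51 CPM in the 2 subcutaneous ones. Phex was at 17.8, 15.5 and 22.5 CPM in the intratibial tumors, and at 14.4 and 20.6 CPM in the subcutaneous ones. Both genes were present outside bone as well as in it, and their groups overlapped. The log2 difference had a 95% interval of -0.28 to 1.00 for Runx2 and of -0.57 to 0.75 for Phex. Alpl was at 0.745, 1.75 and 1.94 CPM in the intratibial tumors, against 0.946 and 0.467 CPM, and its groups overlapped as well (log2 difference 1.06, interval -0.31 to 2.43).

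Sost went the other way. It had 59 and 75 counts in the 2 subcutaneous control tumors (0.744 and 1.00 CPM) and 0 in each of the 3 day 14 control tumors. It was thus at least 65.3-fold higher in the subcutaneous group, with 3 counts over the day 14 group as the floor. Sost would have a lower bound if its counts rest on fewer fragments than their number. By edgeR's quasi-likelihood test with Benjamini-Hochberg adjustment it was the only 1 of 5 members tested with an adjusted p under 0.05 (fitted log2 difference -9.05, which is no bound, SE 1.19, adjusted p = 0.0299). In that test 2.27% of 19452 genes were called, 0.751% in that direction, and 18.8% had an unadjusted p under 0.05. Sost passed the filter on low counts only through the subcutaneous tumors, where it was high, so it could enter this test only as a gene that differed, and the call supports nothing beyond the counts themselves. With no filter its adjusted p was 0.0735. The call was also lost with all 24 tumors in one fit (adjusted p = 0.14), and without subcutaneous control tumor 1 or any of the day 14 control tumors (adjusted p = 0.0608 to 0.0923). Site, harvest day, number and kind of cells injected, the vehicle PvP and the prefix of the library names changed together between these groups and cannot be told apart. The plasmid may have changed too, since the library names read pORF0 in intratibial and Tctrl in subcutaneous control tumors.

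Some genes of bone-resorbing cells and of cartilage were upregulated in the same comparison. Of 11 osteoclast genes tested, 4 were upregulated in day 14 control tumors, where 1.52% of all genes were: Acp5 (tartrate-resistant acid phosphatase, log2 difference 2.37), Ctsk (cathepsin K, 2.09), Mmp9 (3.13) and Ocstamp (3.68). Of 6 chondrocyte genes tested, Acan (aggrecan, log2 difference 1.95) and Col2a1 (type II collagen, 8.63) were upregulated. The Col2a1 value is fitted and is no bound. Whether Col2a1 passed the filter only through the day 14 tumors was not examined, so no more is drawn from its call. Of 17 BMP and Wnt genes, Bmpr1b (log2 difference 2.76), Sostdc1 (4.87), Bmp2 (3.26) and Grem1 (2.03) were upregulated and none was downregulated. Of 17 osteoblast matrix genes, Ank, a pyrophosphate transporter (log2 difference 1.36), and Spp1 (1.67) were upregulated. The median log2 difference was 2.28 over the osteoclast list, 1.99 over the chondrocyte list, 0.60 over the BMP and Wnt list and 0.20 over the osteoblast matrix list, beside -0.01 over all genes tested. Among lists of other cells, the median was 2.04 over 6 marrow myeloid genes, of which Ltf and Ngp were upregulated, and 2.49 over 11 skeletal muscle genes, of which none was called and whose summed level overlapped between the groups (7.71 to 146 CPM at day 14, 3.53 to 15.1 CPM in subcutaneous control tumors). It was 0.40 over 4 tendon and synovium genes, of which Prg4 was downregulated (log2 difference -3.98), and -0.37 over 6 endothelial genes, of which none was called. Over 6 epithelial and tumor line genes, of which Epcam was upregulated, it was 0.60, and over 5 erythroid genes, of which none was called, 0.55. The part of these cells in the differences was not tested. Phospho1 was at 4.72 (SE 0.933), with an adjusted p of 0.0508. The summed level of the osteoclast list was 369 to 528 CPM in day 14 control tumors and 128 to 149 CPM in subcutaneous control tumors.

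**Figure D3:**
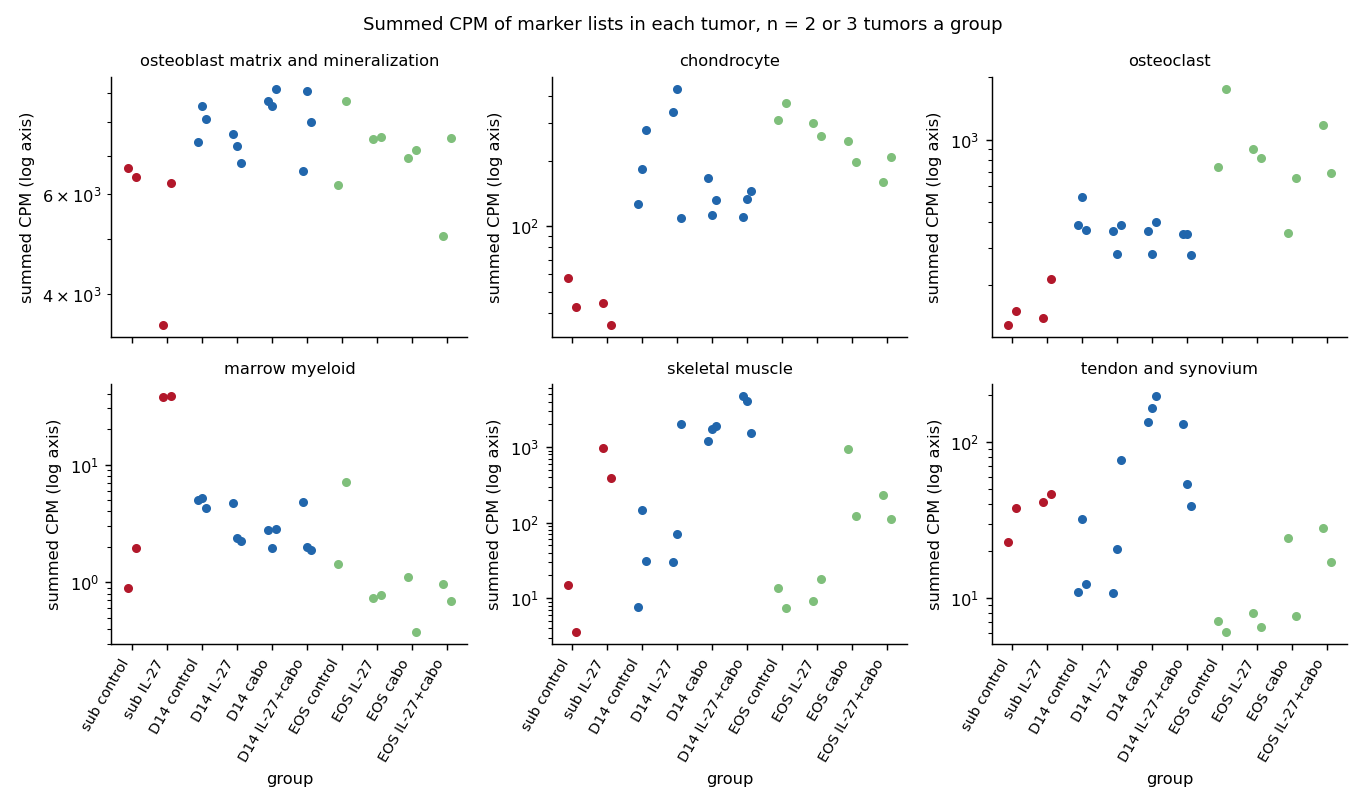
Summed CPM (log axis) of 6 marker lists in each tumor, by group. The osteoclast and chondrocyte lists were higher in all 20 intratibial tumors (277 to 1760 and 109 to 429 CPM) than in the 4 subcutaneous ones (128 to 213 and 35.1 to 57.6 CPM), and the skeletal muscle list varied from 3.53 to 4720 CPM.

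Treatment of bone tumors was examined next, at day 14. None of the members tested was called in any of the 3 comparisons with control by edgeR's test or by DESeq2, and none had an unadjusted p under 0.05: 0 of 3 under IL-27, where 0% of all genes were called, 0 of 4 under cabo, where 1.89% were, and 0 of 4 under IL-27+cabo, where 0.064% were. The shares of all genes with an unadjusted p under 0.05 were 2.76%, 18.9% and 6.2%. The count stayed at 0 without the tumor of mouse 20.

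Runx2 was at 104, 87.6 and 53.1 CPM in the IL-27 tumors, and at 67.4, 65.6 and 66.0 CPM in the cabo tumors. It was at 51.7, 57.4 and 66.1 CPM in the IL-27+cabo tumors, so all 3 treated groups overlapped the control group, and the cabo tumors lay closest together. The 95% interval of its log2 difference from control was -0.31 to 1.03 for IL-27, -0.37 to 0.48 for cabo and -0.75 to 0.52 for IL-27+cabo.

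Phex was at 19.5, 30.7 and 16.2 CPM in the IL-27 tumors and at 17.3, 17.9 and 20 CPM in the cabo tumors. In the IL-27+cabo tumors it was at 10.9, 20.3 and 20.9 CPM, with the lowest value in the tumor of mouse 20. Its 95% intervals were -0.37 to 0.89, -0.38 to 0.34 and -0.85 to 0.67 in the same order, and no group stood apart from control.

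Alpl, the member used most often to stage osteoblast differentiation, was at 0.957, 0.78 and 1.11 CPM in the IL-27 tumors and at 0.542, 1.24 and 0.809 CPM in the cabo tumors. It was at 2.66, 1.38 and 0.84 CPM in the IL-27+cabo tumors, with the highest value in the tumor of mouse 20. The 3 treated groups overlapped the control tumors, and the 95% intervals were wide, at -1.65 to 0.37, -1.84 to 0.28 and -1.23 to 1.54. The interaction of IL-27 and cabo, which asks whether their joint change departs from the sum of the single changes, was 1.56 on the log2 scale for Alpl (interval -0.04 to 3.15), and none of 5 members had an unadjusted p under 0.05 there (1.88% of all genes had, and 0% were called).

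The low members had few counts in every day 14 group. Sp7 had 12, 8 and 18 counts in control tumors, 5, 0 and 4 under IL-27, 16, 4 and 19 under cabo and 8, 12 and 4 under IL-27+cabo. Dmp1 had 8, 4 and 0 counts in control tumors, 0, 12 and 4 under IL-27, 0, 8 and 12 under cabo and 20, 15 and 8 under IL-27+cabo. Ibsp had 32, 4 and 8 counts under cabo and at most 4 in any other day 14 tumor. It failed the filter in every comparison when only the groups compared were fitted. Without the filter its log2 difference between cabo and control was 3.41 (SE 1.53, adjusted p = 0.405 by edgeR's test). The interaction of IL-27 and cabo for Ibsp was -6.93 there (SE 2.94), with an adjusted p of 1, although its unadjusted p was under 0.05, and all 3 IL-27+cabo tumors were at 0. Bglap, Bglap2 and Sost were at 0 in all 12 day 14 tumors.

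**Figure D4:**
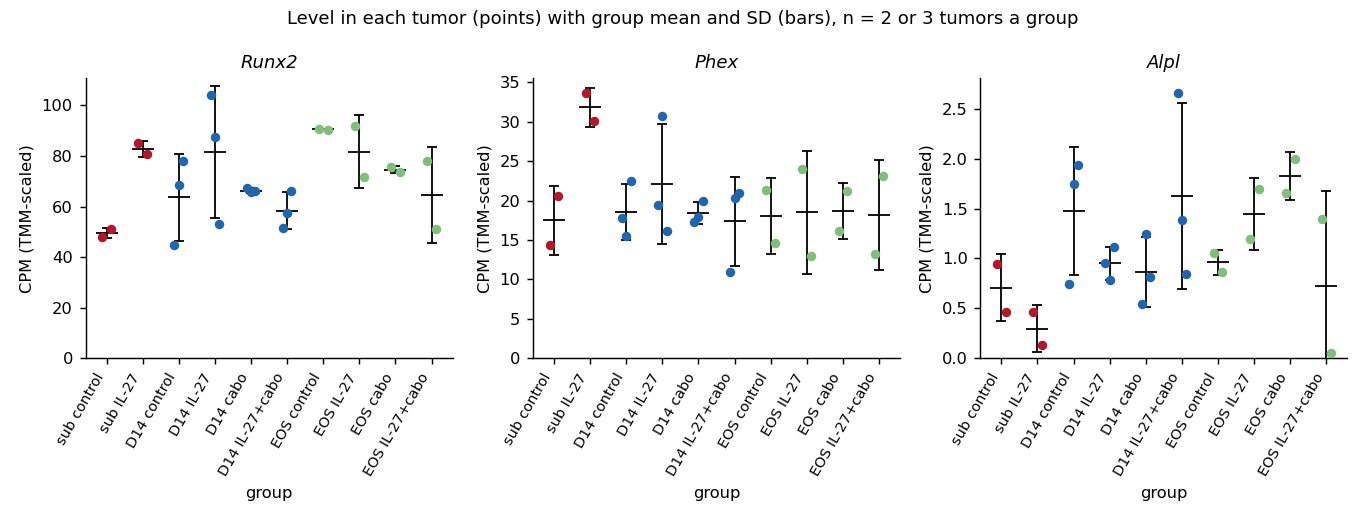
CPM of Runx2, Phex and Alpl in each tumor (points), with the mean and SD of each group (bars, cut where they would run below 0), for 10 groups of 2 or 3 tumors. The highest Runx2 level was 104 in a day 14 IL-27 tumor, the highest Phex level was 33.6 in a subcutaneous IL-27 tumor, and Alpl ranged from 0.0529 to 2.66.

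Markers of neighbouring tissue varied over a wide range at day 14. The summed level of the osteoblast matrix list was 6580 to 9160 CPM, a sum carried by Spp1, Sparc, Col1a1 and Col1a2. The summed level of 12 skeletal muscle genes was 7.71 to 146 CPM in control, 30 to 2040 under IL-27, 1200 to 1930 under cabo and 1530 to 4720 under IL-27+cabo. Under cabo, 6 of 12 muscle genes and 4 of 5 tendon and synovium genes were upregulated (1.2% of all genes were), and 4 of 6 endothelial genes and 1 of 11 osteoclast genes, Acp5, were downregulated (0.693% of all genes were). Of 5 erythroid and 6 marrow myeloid genes none was called under cabo. An unadjusted p under 0.05, in each case downward, was found for 5 and 3 of them (18.9% of all genes in either direction). Their median log2 differences were -2.4 and -1.37. None of 15 osteoblast matrix genes was called under cabo. An unadjusted p under 0.05 was found for 4 of the 15, where 18.9% of all genes had one, and their median log2 difference was 0.18 beside -0.01 over all genes. Mmp13, a collagenase of hypertrophic cartilage and osteoblasts, had the smallest p of these (log2 difference -1.23, adjusted p = 0.056). With the muscle level as a covariate no gene of any kind was called in the 3 comparisons, so the members' count of 0 there says nothing, and their median log2 difference under IL-27+cabo went from -0.10 to -0.56. The part of muscle in the members' levels was otherwise not tested.

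Each EOS mouse was harvested at its own endpoint, on a day that is not given. The paper reports longer survival under cabo and IL-27+cabo than in control. Tumor age and time since dosing may thus differ between EOS groups and cannot be told apart from treatment there. At EOS the members were compared with day 14 in each group. None was called, with 0 of 4 in control, 0 of 3 in IL-27, 0 of 5 in cabo and 0 of 4 in IL-27+cabo by edgeR's test, where 0.104%, 0%, 2.09% and 0% of all genes were. DESeq2 called none either. The shares of all genes with an unadjusted p under 0.05 were 13.1%, 5.05%, 17.6% and 3.83%. In the cabo tumors, 2 of the 5 members, Runx2 and Alpl, had one. Runx2 was at 75.5 and 73.5 CPM at EOS against 65.6 to 67.4 CPM at day 14, a log2 difference of 0.17 (SE 0.063, adjusted p = 0.229). Alpl was at 1.66 and 2.00 CPM at EOS against 0.542 to 1.24 CPM at day 14, a log2 difference of 1.08 (SE 0.393, adjusted p = 0.227). For both genes the 2 EOS tumors lay above the 3 day 14 tumors, as for 18% of all genes tested, and neither passed the adjustment.

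In control tumors Runx2 was at 90.7 and 90.4 CPM at EOS, above the 3 day 14 tumors (log2 interval -0.02 to 1.02), as were 16.9% of all genes tested. Sp7 stood apart the other way, with 4 and 0 counts at EOS against 12, 8 and 18 at day 14 (log2 interval -5.62 to 0.55), as did 16.6% of all genes. Against these EOS control tumors, none of the 5 members tested was called under IL-27, cabo or IL-27+cabo by edgeR's test or DESeq2 and none had an unadjusted p under 0.05 (0% of all genes were called in each, and 3.25%, 8.9% and 14.2% had such a p). EOS IL-27 tumors had Runx2 at 91.9 and 71.5 CPM, EOS cabo tumors as given, and EOS IL-27+cabo tumors at 78.0 and 51.2 CPM, of which the second was the lowest of the 8 EOS values. Phex stayed between 13 and 24 CPM in the 8 EOS tumors, with every group overlapping its day 14 counterpart.

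Alpl showed a very low value in 1 EOS tumor. It had 103 and 4 counts in the IL-27+cabo tumors of mice 16 and 28 (1.4 and 0.0529 CPM), 83 and 118 counts in IL-27, 121 and 139 in cabo, and 75 and 60 in control. Sp7 had 4 and 0 counts in IL-27+cabo, 10 and 20 in IL-27, 22 and 8 in cabo, and 4 and 0 in control. Dmp1 ran to 12 and 22 counts in IL-27+cabo and 8 and 18 in cabo, against 4 and 0 in IL-27 and 0 and 4 in control. These counts are small enough that the 95% interval of the log2 difference of Dmp1 between EOS IL-27+cabo and control reached from -0.99 to 6.83. The change under cabo was not shown to differ between EOS and day 14 for any member (0 of 5 with an unadjusted p under 0.05, against 4.11% of all genes, and 0.0788% of all genes called).

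**Figure D5:**
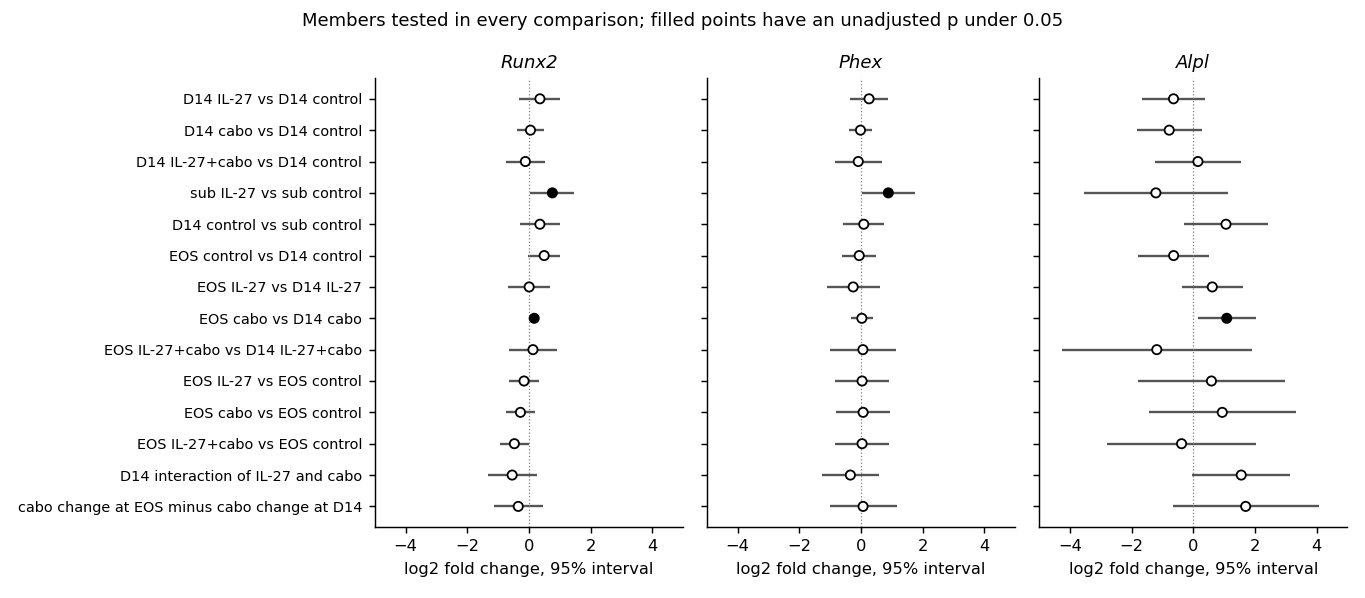
Fitted log2 fold change with its 95% interval for Runx2, Phex and Alpl in 14 comparisons, with filled points where the unadjusted p was under 0.05. Filled points stand at 0.76 and 0.88 for Runx2 and Phex under subcutaneous IL-27, and at 0.17 and 1.08 for Runx2 and Alpl in EOS against day 14 cabo tumors.

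Osteoclast and osteoblast matrix genes were set beside these by harvest. The summed level of the osteoclast list was 369 to 528 CPM in day 14 control tumors and 738 to 1760 CPM at EOS, and 6 of 11 had an unadjusted p under 0.05 upward (5.9% of all genes had) with none called by edgeR's test. In cabo tumors it was 282 to 400 CPM at day 14 and 355 to 658 CPM at EOS, where 3 of 11 had such a p upward and 1 downward (17.6% of all genes in either direction) and none was called. The median log2 difference of the list was 1.26 in control, 1.27 in IL-27, 0.18 in cabo and 1.13 in IL-27+cabo tumors. In IL-27 and IL-27+cabo tumors 8 and 7 of 11 had such a p upward (5.05% and 3.83% of all genes in either direction). None was called. The summed level in IL-27+cabo tumors was 277 to 351 CPM at day 14 and 694 to 1180 CPM at EOS. For the change under cabo at EOS minus day 14, 1 of 11 had an unadjusted p under 0.05, downward (4.11% of all genes in either direction), and none was called. The difference between groups was not tested for the list as a whole. The osteoblast matrix list ran from 7380 to 8550 CPM at day 14 and from 6210 to 8720 CPM at EOS in control tumors. Of its 15 genes tested there, 1 had an unadjusted p under 0.05 upward and 3 downward (13.1% of all genes in either direction), and none was called (0.104% of all genes were). In cabo tumors the list ran from 8560 to 9160 CPM at day 14 and from 6940 to 7150 CPM at EOS. Of 15 genes tested in cabo tumors, 1 had such a p upward and 3 downward (17.6% of all genes in either direction). None was called (2.09% of all genes were), and the median log2 difference was -0.31. In IL-27 and in IL-27+cabo tumors the summed levels at EOS overlapped those at day 14.

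In the subcutaneous model, IL-27 was compared with empty vector. Runx2 and Phex had higher levels and Sost had fewer counts in IL-27 tumors, without passing the adjusted threshold. Runx2 was at 85.1 and 80.7 CPM in IL-27 tumors against 48.1 and 51 CPM in control tumors, a log2 difference of 0.76 (SE 0.302, adjusted p = 0.122). Phex was at 33.6 and 30.1 CPM against 14.4 and 20.6 CPM, a log2 difference of 0.88 (SE 0.364, adjusted p = 0.134). Both genes were higher in 2 of 2 IL-27 tumors, without overlap, as were 31.7% of all genes tested. Sost went the other way, with 0 and 8 counts in IL-27 tumors against 59 and 75, a log2 difference of -4.06 (SE 1.47, adjusted p = 0.0969). It owed its place in this test to the control tumors, where it was high, and without the filter its adjusted p was 0.169.

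None of 5 members passed the adjusted threshold in edgeR's test there, where 20% of all genes did, and these 3 had an unadjusted p under 0.05, where 35.4% of all genes had. DESeq2 called all 3 (adjusted p = 0.0417 for Runx2, 0.0448 for Phex and 0.0379 for Sost), along with 6172 of 19360 genes in all. The direction of Phex depended on a correction for GC content and transcript length, under which its log2 difference was -0.65. Phex has a GC content of 40.1% and Runx2 one of 53.5%, and under that correction Runx2 was at 1.3 with an adjusted p of 0.0212 and Sost at -2.25 with one of 0.327. Runx2 overlaps Supt3, a gene on the opposite strand with 1004 to 3562 counts, but their annotated exons share 0 bases.

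Alpl had 38 and 10 counts in the IL-27 tumors against 75 and 35, and Dmp1 13 and 27 against 8 and 16. Sp7 had 0 and 4 counts against 13 and 0, and Ibsp 0 and 20 against 0 and 0. Around them, the type I collagen chain Col1a1 was downregulated (log2 difference -2.06, adjusted p = 0.0163), while Tnfrsf11b (osteoprotegerin, the decoy receptor for RANKL, 2.86) and Mmp13 (1.72) were upregulated. These were 2 upregulated and 1 downregulated of 17 osteoblast matrix genes, where 3.52% and 16.5% of all genes were. Fgf23, an osteocyte hormone, was upregulated (log2 difference 5.97, adjusted p = 0.0345), with between 4 and 512 counts in the 4 tumors. It passed the filter only through the IL-27 tumors, where it was high, so that call adds nothing to its counts. Of 17 BMP and Wnt genes, Lrp5, a Wnt co-receptor (log2 difference -4.40), and Bmp4 (-2.94) were downregulated and Grem1 (1.39) was upregulated. The GC and length correction cut the calls from 3880 to 2384 of 19360 genes. Its effect is given for members only, so the calls of list genes here hold for the main fit. In the same tumors 11 of 12 skeletal muscle genes and 5 of 6 marrow myeloid genes were upregulated. Their summed levels were 385 to 962 CPM (muscle) and 37.7 to 38.1 CPM (myeloid) under IL-27, against 3.53 to 15.1 CPM and 0.883 to 1.97 CPM in control. With control levels this low, some of these genes may have passed the filter only through the IL-27 tumors. Calls of such genes add nothing to their levels. Of the epithelial and tumor line genes, 2 of 6 were downregulated (Hras, log2 difference -3.90, and Krt8, -3.81), and the list's summed level was 62.8 to 91.3 CPM under IL-27 against 93.5 to 143 CPM. Of 6 endothelial genes Tie1 and Flt4 were downregulated, and of 4 tendon and synovium genes Scx was. The part of these markers in the members' levels was not tested.

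Over all 14 comparisons, 62 tests of a member were made after the filter, with Runx2, Phex and Alpl tested in each, Sp7 in 10, Dmp1 in 8, Sost in 2 and Bglap, Bglap2 and Ibsp in none. Of these tests 1 had an adjusted p under 0.05 (Sost between sites, with the limit given there), and 6 had an unadjusted p under 0.05. The lowest adjusted p other than those of Sost was 0.122. Comparisons that share a control group are not independent of each other.

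Members were last set against each other across the 20 intratibial tumors. Between log2 CPM values, Pearson's r was 0.26 for Runx2 and Phex, 0.2 for Runx2 and Alpl, -0.41 for Phex and Alpl, -0.47 for Runx2 and Dmp1, and 0.52 for Sp7 and Alpl. Both genes of a pair were read from the same libraries, and the tumors differed in treatment and harvest. A mean of log2 CPM over the 5 members that passed the filter gives most weight to those that vary most, with an SD of 1.03 for Alpl, 1.13 for Sp7 and 1.29 for Dmp1 against 0.318 for Runx2 and 0.355 for Phex, and Sp7 and Dmp1 were near the floor. Its r was -0.0972 with Runx2 and -0.144 with Phex, so likeness to it is not likeness to those 2 well-measured members. The 10 genes of 21563 most like that mean were Adora1 (r = 0.776), Mgat5b, Tac4, Mapk10, Scg3, Cacna1e, Slc29a4, Rimklb, Astn1 and Ripk4 (r = 0.675), and none of the osteoblast, osteocyte or BMP and Wnt lists was among them. These values are descriptions without a test.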

How the data were processed

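RNA of 24 mouse tumors was measured. Per the authors, total RNA with an RNA integrity number of at least 8 went into stranded poly(A) libraries, and the reads were trimmed, mapped with HISAT2 and assembled with StringTie. The authors deposited unnormalised counts per Ensembl gene as whole numbers. The program that counted them and its strand setting, mouse build and annotation are not given in the sources used here, and the submitters' processing notes list a human build, GRCh38. Of 55401 identifiers, 55141 were matched to GENCODE M21 on GRCm38, which gave names, coordinates and exon lengths.

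Counts were filtered (filterByExpr), TMM-scaled and tested in R 4.3.3 with edgeR 4.0.16 (quasi-likelihood F test, two-sided, Benjamini-Hochberg over all genes tested), with the groups compared in a fit, the 4 day 14 groups in the interaction, the EOS groups together, and all intratibial tumors for the difference in cabo change. "Called", "upregulated" and "downregulated" mean an adjusted p under 0.05. DESeq2 1.42.0, RLE scaling, no filter, counts divided by 4, a correction for GC content and length (splines with 5 degrees of freedom), all tumors in one fit, leaving out each tumor, a muscle covariate and pairing of subcutaneous tumors by number were alternatives. The members, lists and rules were chosen with earlier results of these data known. All members are described, fold change and p are given for those with an unadjusted p under 0.05, with intervals added for Runx2, Phex, Alpl, Sp7 and Dmp1 and the unfiltered fit for Ibsp, added after the values were seen, and up to 4 genes of a list are named by smallest p. The 95% intervals come from the fit.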

Additional observations from a re-analysis of the deposited data

How the results depend on the processing

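No member was called under any alternative in 12 of the 14 comparisons, but several of these fits called 0 genes of any kind, where the count could not move and says nothing of stability. Under subcutaneous IL-27 it was 0, and it became 3 with DESeq2 (Runx2, Phex and Sost, where 6172 of 19360 genes were called), 1 with the counts divided by 4 (Sost, log2 difference -3.95, adjusted p = 0.0272, 4488 of 16075 genes), 1 with the GC and length correction (Runx2, 2384 of 19360), 1 with that correction and the replicate block (Runx2, 3406 of 19360), and 0 to 1 on leaving out a tumor. The call in the last case was Sost without IL-27 tumor 2, which had its 8 counts. Phex was reversed to -0.65 (adjusted p = 0.175) under the GC and length correction and to -0.64 (adjusted p = 0.23) with the block added. Between day 14 control and subcutaneous control tumors, 1 member was called, and 0 without the filter, 0 with all 24 tumors in one fit, and 0 to 1 on leaving out a tumor.

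Only the subcutaneous tumors share replicate numbers between groups. Deviations of same-numbered tumors from their group means had a Pearson correlation of 0.0153 over 22301 genes. With 2 tumors a group, this cannot decide whether the numbers pair the tumors. The methods describe no pairing, so the main fit was left without it. With the replicate block alone, 0 members were called, with a log2 difference of 0.76 for Runx2, 0.91 for Phex and -4.77 for Sost. That fit called 4248 of 19360 genes, against 3880 without the block.

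The counts of 6 of the 9 members were near or under the floor in most tumors, and 3 passed the filter in no comparison. Whether more depth would have shown them was not tested. Groups of 2 or 3 tumors leave intervals for Alpl of over 2 log2 units in most comparisons.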
